A study of Mus musculus with 6 samples.

Results

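Endothelial cells line blood vessels, and the 10 genes described here encode proteins that set them apart: the vascular endothelial growth factor receptors Kdr and Flt1, the angiopoietin receptor Tek and its relative Tie1, the junction proteins Cdh5, Pecam1, Esam and Cldn5, the secreted protein Egfl7 and the transcription factor Sox17. Open chromatin near these genes was taken from ATAC-seq peak lists of mouse embryonic retina. ATAC-seq uses the Tn5 transposase to cut accessible DNA. A peak belonged to a gene when its summit lay inside the gene, or when the nearest end of any protein-coding gene was an end of that gene and lay within 100 kb. All 10 genes were found in RefSeq's GRCm38.p6 table, the build of the files. Their peaks in the 6 libraries joined into 37 regions, of 46780 in the genome, where peaks sharing at least 1 bp were joined.

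The libraries came from retinas of C57BL/6 embryos at E14.5, an embryonic day on which retinal neurons are being born. The wild-type group was 3 Atoh7 +/+ libraries, and the mutant group 3 Atoh7 SE/SE libraries, with a mutant shadow enhancer (SE) on both copies of Atoh7, a gene for a transcription factor needed to form retinal ganglion cells; the labels do not describe the mutation further. Each library came from the retinal pair of a single animal, and the retinas were dissociated whole, with no sorting of vascular cells stated. The authors also deposited 2 joint lists, each named for a genotype.

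In the mouse the neural retina has no vessels of its own until after birth. Before then it is supplied by the hyaloid vessels, which lie on its inner face in the vitreous, and by the choroid, which lies outside the pigment epithelium. Vascular endothelial growth factor A acts on endothelial cells mainly through Kdr, while Flt1 binds it tightly and can act as a trap. Kdr is not restricted to vessels: in the mouse it is also made by retinal progenitor cells. In a bulk library a smaller share of cells of a type and less accessibility per cell cannot be told apart.

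Promoter windows, from 250 bases before to 50 bases after an annotated start site, were available from RefSeq (GRCm38.p6) for 6 of the 10 genes, with 8 windows in all. The following 4 show the contrast at the starts of these genes: an open start in all libraries (Kdr), a start called in SE/SE libraries only (Flt1), an internal start open in all libraries (Egfl7) and a start with no library peak (Cldn5). Each is printed 5′ to 3′ on the strand of its gene, and capitals mark the bases that lie under a peak of any of the 6 libraries. The Egfl7 window was chosen after its values were seen.
Kdr, chr5:75978406-75978705, minus strand: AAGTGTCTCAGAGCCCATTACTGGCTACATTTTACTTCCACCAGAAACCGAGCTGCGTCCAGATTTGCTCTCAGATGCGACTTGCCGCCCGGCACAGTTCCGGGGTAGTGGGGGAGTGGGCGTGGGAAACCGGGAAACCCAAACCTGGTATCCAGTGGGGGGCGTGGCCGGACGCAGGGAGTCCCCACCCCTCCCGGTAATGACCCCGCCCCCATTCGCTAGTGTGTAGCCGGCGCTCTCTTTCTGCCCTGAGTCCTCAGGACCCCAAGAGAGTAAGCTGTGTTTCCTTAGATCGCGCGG
Flt1, chr5:147725962-147726261, minus strand: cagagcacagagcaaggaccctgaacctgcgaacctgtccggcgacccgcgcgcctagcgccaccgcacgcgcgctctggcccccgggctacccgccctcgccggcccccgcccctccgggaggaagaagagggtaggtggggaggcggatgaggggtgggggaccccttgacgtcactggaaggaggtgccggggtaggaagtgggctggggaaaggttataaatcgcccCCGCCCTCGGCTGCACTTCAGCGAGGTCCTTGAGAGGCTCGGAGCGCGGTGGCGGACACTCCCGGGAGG
Egfl7, chr2:26586386-26586685, plus strand: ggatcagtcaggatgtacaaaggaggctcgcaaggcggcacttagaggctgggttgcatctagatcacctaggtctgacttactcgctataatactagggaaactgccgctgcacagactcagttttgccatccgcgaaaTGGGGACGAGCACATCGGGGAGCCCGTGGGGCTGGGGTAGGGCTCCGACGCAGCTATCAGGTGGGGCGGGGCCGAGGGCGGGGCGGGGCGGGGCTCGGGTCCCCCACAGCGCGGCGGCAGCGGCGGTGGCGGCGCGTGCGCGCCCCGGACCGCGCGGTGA
Cldn5, chr16:18776597-18776896, plus strand: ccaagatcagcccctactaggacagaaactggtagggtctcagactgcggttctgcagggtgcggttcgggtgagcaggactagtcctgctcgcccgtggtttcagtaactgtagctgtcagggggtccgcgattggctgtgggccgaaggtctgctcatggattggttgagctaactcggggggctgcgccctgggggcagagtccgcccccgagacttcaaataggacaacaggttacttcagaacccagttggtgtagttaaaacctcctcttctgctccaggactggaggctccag

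The Kdr window was covered over all 300 bases, the Flt1 window over the 69 bases around and after its start, the internal Egfl7 window over 160 bases, and the Cldn5 window over 0. The windows that were open were rich in CpG: Kdr held 19 CpG dinucleotides, Flt1 29 and the internal Egfl7 window 31. Windows with no library peak held 12 in Cldn5, 7 in Tie1, 3 in Tek and 5 and 8 in the other Egfl7 windows. The same held across the genome, where the median of 32851 windows was 7 CpG. Of windows at or above that median 71.7% had a peak in all 6 libraries, against 3.03% of those below it. Cldn5, Tie1 and the Egfl7 window with 8 CpG were thus at or above the median without a library peak.

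Short motifs were searched in the 8 windows on both strands, and a match is a description of letters only. The ETS motif CAGGAAG, of a factor family that drives many endothelial genes, was in 2 windows, both of Egfl7 and both without a peak, and in 13.3% of all windows. The other ETS form searched, CCGGAAG, was in 0 of the 8 and in 8.86% of all windows. Tek, whose window had no peak, held the GATA motif AGATAA and the SOX motif AACAAT, which 11.2% and 10.7% of all windows hold. The FOX motif TAAACA was in 0 of the 8 windows (13.4% of all). Flt1 held the TATA motif TATAAA, found in 13.6% of all windows, starting 31 bases before its start site. The E-box CANNTG was in 6 of the 8 windows and in 72.3% of all.

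Of the 37 regions, 8 had a peak in all 6 libraries, 6 had a peak in all 3 SE/SE and 0 wild-type libraries, 0 had the reverse pattern, and 23 were mixed. Among all 46780 regions these patterns made up 52.1%, 8.23%, 0.0321% and 39.6%. Of the endothelial regions 21.6% were in all 6 libraries, 16.2% were SE/SE-only and 62.2% were mixed. No wild-type library had a peak in 16 of them (43.2%), against 27.7% of all regions. Of the 23 mixed regions, 22 had a peak in more SE/SE than wild-type libraries and 0 in more wild-type libraries. Among all mixed regions 94.8% had that lean. The 37 regions were spread over 8 genes, with 9 at Kdr, 6 each at Flt1 and Cdh5, 4 each at Esam and Sox17, 3 each at Cldn5 and Egfl7 and 2 at Pecam1, and none at Tek or Tie1. Inside the genes lay 19 and outside them 18.

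Each peak carries the authors' signal value, given below as a percentile, which is the rank of the peak within its own list from 0 (lowest) to 100. Lists differ in length, and since the labels give no scaling between them, a percentile places a peak within its list and shows no change between libraries. The signal value rises with peak width (Spearman's correlation over peaks within a library list 0.933 to 0.940). By this measure 30 of the 37 regions were at or below the median of the list in every library that had them, while 5 were above it in all 6 libraries. The same counts over all regions were not made, so these do not set the 10 genes apart. Per library, the genes' peaks had a median percentile of 24.7 to 52.6 in wild type and 22.4 to 29.3 in SE/SE.

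**Figure D1:**
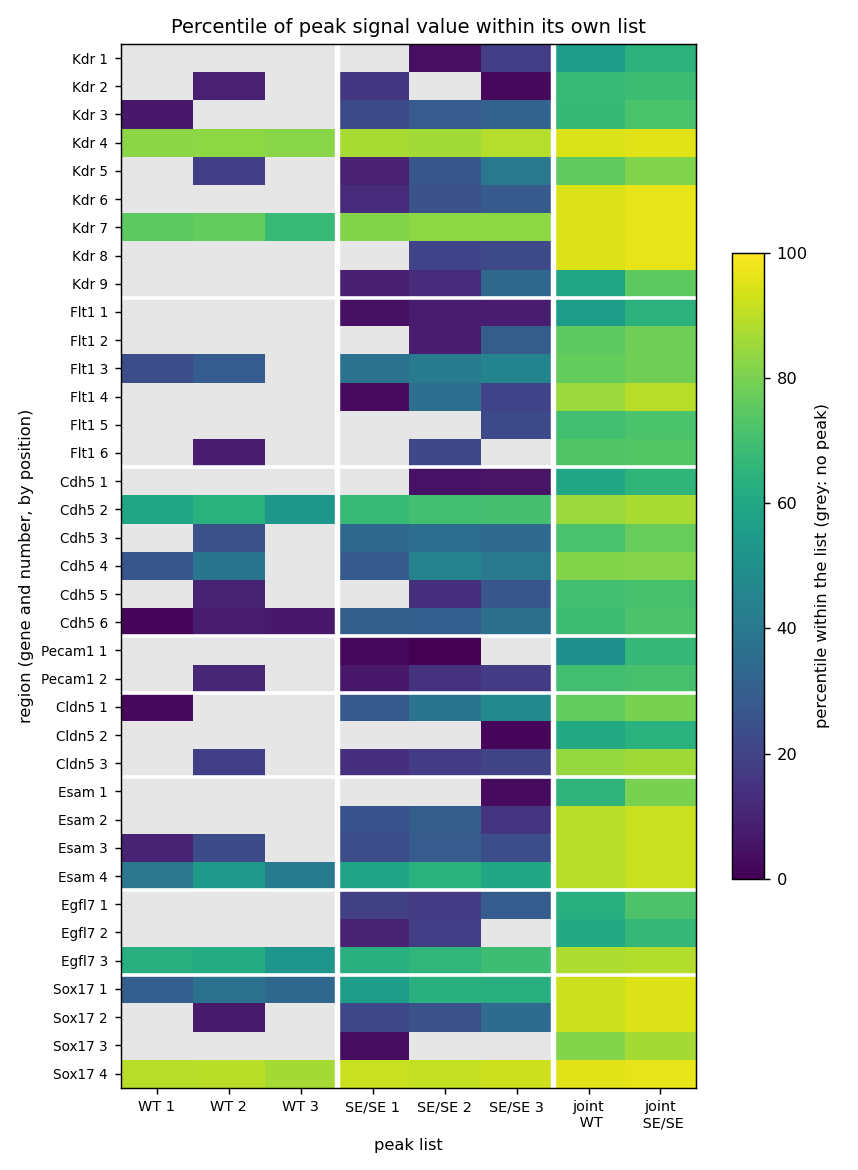
Percentile of the authors' signal value within its own list (colour, 0 to 100) for the 37 regions of the endothelial genes (rows, numbered within each gene by position) in the 6 libraries and the 2 joint lists (columns), with grey where a list has no peak. The rows coloured in all 6 library columns are the 8 shared regions, and every region is coloured in both joint lists.

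At Kdr, 2 strong regions were present in every library. The start-site region Kdr 7 (chr5:75978026-75978865, 840 bp) has its highest summit 24 bp from the start site. Its peaks stood at percentiles 74.9, 76.2 and 67.8 in wild type 1, 2 and 3 and at 81.5, 83.2 and 83.2 in SE/SE 1, 2 and 3. The second, Kdr 4 (chr5:75952162-75953041), lies inside the gene, 26100 bp from the start site. It stood at percentiles 82.6, 83.0 and 82.2 in the wild-type and 87.1, 86.3 and 88.7 in the SE/SE libraries. Both were above the median of every library list. Kdr was the only one of the 10 genes with a summit within 1 kb of a gene end in all 6 libraries, which 54.0% of all protein-coding genes had.

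Around these 2 regions Kdr had weaker ones that were called mainly in SE/SE libraries. Kdr 6 (chr5:75977668-75977924), 598 bp from the start site, was called in 0 wild-type libraries and at percentiles 12.4, 24.6 and 28.2 in SE/SE 1, 2 and 3. Kdr 8 (chr5:75979140-75979298), on the other side of the start region and 129 bp beyond the gene's upper end, was called in SE/SE 2 and 3 at percentiles 19.9 and 22.1. Kdr 6, 7 and 8 all lie in a single peak of each joint list, chr5:75977601-75979427 in joint wild type, at percentile 94.6, and chr5:75977598-75979464 in joint SE/SE, at percentile 96.2. The joint wild-type list therefore has the flanks that no single wild-type library has. The other SE/SE-only region, Kdr 9 (chr5:76006526-76006722), lay 27543 bp beyond the gene's upper end, with percentiles 8.95, 12.6 and 33.6 in SE/SE 1, 2 and 3. Kdr 5, 1614 bp downstream inside the gene, was in wild type 2 and all SE/SE libraries, and Kdr 3 in wild type 1 and all SE/SE libraries. Kdr 6 to 9 also lie inside the annotated noncoding gene Gm32727, from which they cannot be told apart.

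At Flt1, 0 of 6 regions were shared by all libraries. The start-site region Flt1 4 (chr5:147725329-147726030) was called in no wild-type library. In SE/SE 2 it was a single peak at percentile 36.5, while SE/SE 1 and SE/SE 3 each had 2 peaks there, the higher at percentiles 3.04 and 19.98. Flt1 was the only member with a gene-end peak in 3 SE/SE and 0 wild-type libraries, a pattern that 0.813% of all protein-coding genes had and whose reverse 0.0503% had. Both joint lists had a peak over the Flt1 start, at percentile 85.0 in joint wild type and 89.4 in joint SE/SE.

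Flt1 1 (chr5:147563834-147563965), near the far end of the gene and 162122 bp from the start site, was the other SE/SE-only region, at percentiles 4.64, 8.07 and 8.0. The most widely shared region was Flt1 3 (chr5:147636782-147637033), inside the gene and 89113 bp from the start site. It stood at percentiles 24.0 and 29.1 in wild type 1 and 2, was not called in wild type 3, and stood at 37.8, 41.5 and 45.2 in SE/SE 1, 2 and 3. Wild type 3, which has the shortest list, had no Flt1 peak at all.

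**Figure D2:**
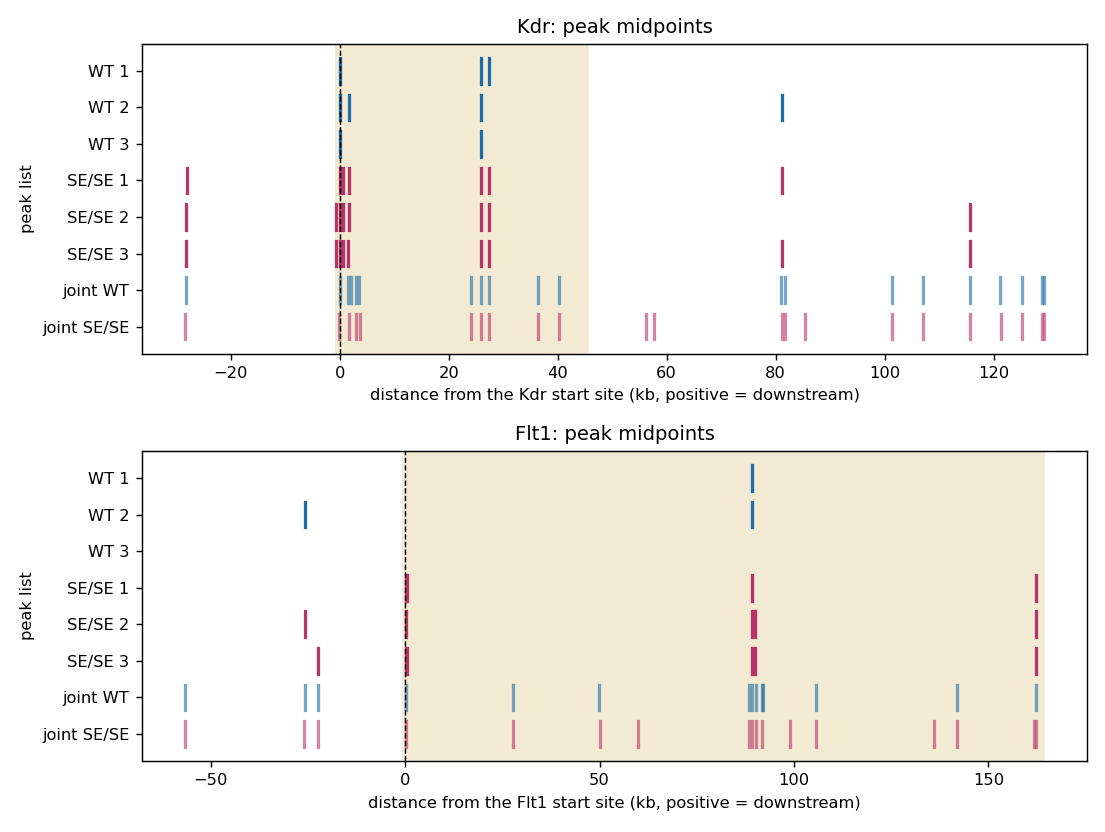
Midpoints of the peaks of Kdr (top) and Flt1 (bottom) by distance from the annotated start site in kb, positive downstream, with a row for each library and joint list and the gene shaded. At Kdr all 6 libraries have a peak at the start and near 26 kb, whereas at Flt1 the 3 SE/SE and 0 wild-type libraries have a peak at the start, and both joint lists have more peaks than any library.

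Tek, the receptor for angiopoietins, and Tie1, which modulates Tek signalling, had a peak in 0 of 6 libraries, inside the gene or outside it. The joint lists had a few. For Tek these were 2 peaks in joint wild type, the higher at percentile 49.5 (chr4:94752516-94752836), and 3 in joint SE/SE, the highest at percentile 48.6 (chr4:94752502-94752880), and none lay at the start site. For Tie1 each joint list had 1, inside the gene, at percentile 28.0 (chr4:118487365-118487586) in joint wild type and 51.5 (chr4:118487328-118487580) in joint SE/SE. Over their starts neither joint list had a peak.

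Of the junction genes, Cdh5 (VE-cadherin, the adherens junction protein of endothelium) and Pecam1 (an adhesion protein of endothelial borders) had no library peak near a gene end. All 6 Cdh5 regions lay outside the gene, and 2 of them were in every library. The stronger, Cdh5 2 (chr8:104028538-104028964), lay 72833 bp below the gene's lower-coordinate end and inside the noncoding gene Gm32728. It stood at percentiles 58.7, 64.0 and 53.0 in the wild-type and 67.8, 70.3 and 70.5 in the SE/SE libraries, above the median of every list. The nearer, Cdh5 6 (chr8:104146407-104146583), lay 1984 bp beyond the upper end, at percentiles 1.57, 8.09 and 6.99 in wild type and 30.4, 30.1 and 36.8 in SE/SE. It was close to the bottom of each wild-type list. With equal list lengths, described further on, it was called in 1 library of each genotype. That cut leaves the shortest list, of wild type 3, whole and shortens the SE/SE lists most. The count therefore does not compare the genotypes at this region. The other 4 were mixed, among them Cdh5 4 (chr8:104062077-104062412), called in all but wild type 3 at percentiles from 26.9 to 44.8. Cdh5 4 lies inside the noncoding gene Gm39236. Pecam1 had only 2 weak regions inside the gene. The wider, Pecam1 2 (chr11:106674675-106674829), was called in wild type 2 at percentile 10.8 and in SE/SE 1, 2 and 3 at 6.94, 14.5 and 17.3.

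Esam, an adhesion protein of endothelial tight junctions, had a cluster of 3 regions inside the gene. Esam 4 (chr9:37530726-37531154), 2918 bp from a gene end, was in every library, at percentiles 39.6, 53.8 and 40.9 in wild type and 58.0, 64.0 and 59.5 in SE/SE. Next to it, Esam 2 (chr9:37530180-37530360) was called in 0 wild-type libraries and at percentiles 25.2, 29.5 and 14.9 in SE/SE 1, 2 and 3. Esam 3, between them, was in wild type 1 and 2 and in all SE/SE libraries, at percentiles from 9.50 to 28.8. In each joint list a single peak spans all 3, at percentile 89.2 in joint wild type and 91.8 in joint SE/SE. Near its gene end Esam had a peak in SE/SE 3 only, at percentile 2.85 (Esam 1, chr9:37527970-37528076).

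Cldn5, the main claudin of the tight junctions that seal vessels of the brain and retina, had 3 mixed regions. Cldn5 3 (chr16:18777463-18777797) lies inside the gene, 685 bp from its start site. It was called in wild type 2 at percentile 18.6 and in SE/SE 1, 2 and 3 at 13.7, 17.4 and 20.7. Wild type 1 and 3 had no peak there. Cldn5 1 (chr16:18711734-18712073) lay 64883 bp before the start site, inside the noncoding gene Gm41429. It was called in wild type 1 at percentile 2.48 and in the SE/SE libraries at 28.4, 38.4 and 47.8. Both joint lists had a peak over the Cldn5 start, chr16:18776630-18777950 in joint wild type at percentile 84.2 and chr16:18776483-18777879 in joint SE/SE at 85.8, although no library had a peak in the promoter window.

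Egfl7, a secreted endothelial protein that hosts the endothelial microRNA miR-126 in an intron, was open at an internal start in every library. Egfl7 3 (chr2:26586526-26587210) reaches over the third of its annotated promoter windows, printed above, and stood at percentiles 62.7, 61.6 and 52.6 in wild type and 62.5, 65.7 and 68.8 in SE/SE. The libraries of both genotypes lay above the median of their lists. Being 5767 bp from the nearer gene end, this start is missed by a count of gene-end peaks, in which Egfl7 scores 0 of 6. The other 2 Egfl7 windows had no peak in any of the 8 lists, and nor did the hairpins of Mir126a and Mir126b. Egfl7 1 (chr2:26561749-26561932), 19249 bp before the first start site, was SE/SE-only, at percentiles 18.9, 17.9 and 29.2. Egfl7 2 (chr2:26566345-26566506) was in SE/SE 1 and 2 only, at percentiles 10.1 and 18.7.

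Sox17, a transcription factor of arterial endothelium and also of endoderm, had the highest-ranking region of all. Sox17 4 (chr1:4571271-4572221, 951 bp) stood at percentiles 89.4, 89.6 and 86.7 in wild type and 91.6, 91.0 and 92.6 in SE/SE. It lies 74405 bp from Sox17, inside the noncoding gene Gm37323, and belongs to Sox17 only by the distance rule. Sox17 1 (chr1:4491723-4492636), inside the gene and 1058 bp from its end, was also in every library, at percentiles 30.0, 37.7 and 33.6 in wild type and 56.1, 63.6 and 62.6 in SE/SE. Beside it, Sox17 2 (chr1:4493319-4493637) was in wild type 2 and all SE/SE libraries. Sox17 3 (chr1:4496681-4496790), 671 bp from the other gene end, was called in SE/SE 1 only, at percentile 3.72. Sox17 4 was the farthest region taken by the 100 kb limit, and the nearest region beyond it lay 178591 bp from Cdh5 and had a peak in all 6 libraries.

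Per library, the 10 genes had 13, 19 and 9 peaks in wild type 1, 2 and 3 and 29, 32 and 34 in SE/SE 1, 2 and 3. Wild type averaged 13.7 ± 5.03 and SE/SE 31.7 ± 2.52 (SD, n = 3), a ratio of 2.32, and the groups did not overlap. The lists themselves also differed, with 27873 to 34797 peaks in wild type and 39115 to 44242 in SE/SE, a ratio of 1.34. Per 10000 peaks of the list, the genes had 4.28 ± 1.12 in wild type and 7.53 ± 0.140 in SE/SE. Neither count is tested, since the genes were chosen with results known. In addition, 3 against 3 libraries cannot give a 2-sided exact permutation p under 0.1.

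When every library was cut to its 27873 highest peaks by signal value, the length of the shortest list, most of this difference went. The 10 genes then had 9, 11 and 9 peaks in wild type and 10, 12 and 11 in SE/SE, 9.67 ± 1.15 and 11.0 ± 1.0 (SD, n = 3), and the groups overlapped. Of the 37 regions 22 had no peak left, and 0 of the 15 that remained were in 3 SE/SE and 0 wild-type libraries, against 1.38% of all regions at this length. The Flt1 start then had a peak in 1 SE/SE library. The shared regions of Kdr, Egfl7, Esam and Sox17 and the stronger one of Cdh5 kept a peak in all 6 libraries. The read depth of the libraries is unknown, and per the labels' protocols wild-type libraries had 17, 18 and 19 amplification cycles and SE/SE libraries 15, 16 and 16. List length, amplification and genotype cannot be told apart here.

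**Figure D3:**
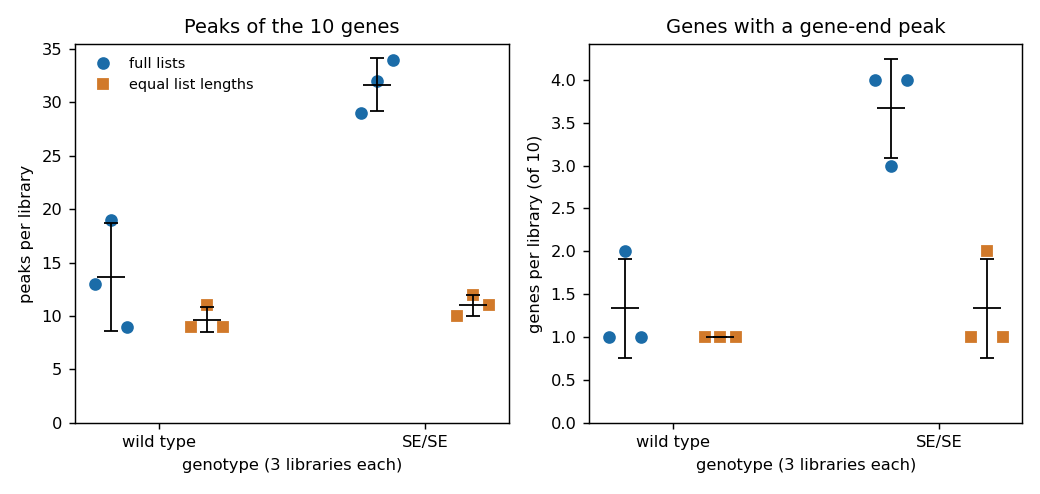
Peaks of the 10 endothelial genes per library (left) and how many of the 10 genes have a summit within 1 kb of either end (right), by genotype, for the full lists (circles) and for lists of equal length (squares), with points for the 3 libraries and bars for mean and SD. With full lists the SE/SE libraries lie above all wild-type libraries, at 29 to 34 peaks against 9 to 19, and with equal lengths the groups overlap.

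The count of SE/SE-only regions also changed with the libraries used. Leaving out a library loosens the rule, since fewer libraries must have or lack a peak, so a rise follows in part from the rule. The count was 6 with all libraries, 11 without wild type 2, whose list is the longest of its genotype, and 10 without SE/SE 1, whose list is the shortest of its genotype. Over all regions the same omissions raised the share of SE/SE-only regions from 8.23% to 15.1% and 14.6%. The 6 regions were weak where they were called, with mean percentiles from 6.91 to 23.2, and all 6 had a peak in both joint lists. Neither value was worked out over all SE/SE-only regions, so they do not set these 6 apart.

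Counting genes by a summit within 1 kb of either end gave 1, 2 and 1 of the 10 in wild type 1, 2 and 3 and 4, 3 and 4 in SE/SE 1, 2 and 3, or 1.33 ± 0.577 and 3.67 ± 0.577 (SD, n = 3). Kdr made up the whole count in wild type 1 and 3, joined by Cldn5 in wild type 2. Kdr, Flt1 and Cldn5 made it up in the SE/SE libraries, with Sox17 added in SE/SE 1 and Esam in SE/SE 3. Tek, Tie1, Cdh5, Pecam1 and Egfl7 had none in any library, as did 40.0% of all protein-coding genes. Over all protein-coding genes the share with such a peak was 55.9 ± 1.05% in wild type and 58.6 ± 0.433% in SE/SE. The annotated end of Kdr lies past its start site, with the start region's summit 573 bp from that end, so that a window of 500 bp leaves this summit out. The narrower window counted 0, 0 and 0 genes in wild type 1, 2 and 3 and 0, 1 and 2 in SE/SE 1, 2 and 3: Kdr in SE/SE 2 and 3, through Kdr 8, and Esam in SE/SE 3. With equal list lengths the endothelial count was 1.0 ± 0 in wild type and 1.33 ± 0.577 in SE/SE.

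In the joint lists the endothelial genes had more peaks, 78 of 104991 in wild type and 91 of 120772 in SE/SE. Kdr had 20 and 22, Flt1 14 and 17, and Cdh5 12 and 19. A peak in no library was the rule for these: 59.0% of the wild-type and 64.8% of the SE/SE joint peaks overlapped no library peak, beside 60.5% and 66.0% of each whole list. The highest of them was inside Kdr, at percentile 74.3 in joint wild type (chr5:75941855-75942452) and 77.8 in joint SE/SE (chr5:75941648-75942437). Of the SE/SE joint peaks 19 (20.9%) overlapped nothing in joint wild type, beside 22.0% of that whole list, and the highest of the 19 stood at percentile 32.6, inside Flt1. Of the wild-type joint peaks 1 (1.28%) had none in joint SE/SE, beside 6.28% of the list, and it was also inside Flt1, at percentile 1.36. There are no replicates of a joint list. All 37 regions were covered by a peak of both joint lists.

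Other genes of vessels and of neighbouring cells were described by the same counts. Among 24 signalling partners, which include the growth factors, Notch and ephrin genes, 17 had a gene-end peak in all 6 libraries and 5 in none, with 18 to 19 genes per wild-type and 18 to 19 per SE/SE library. Among 17 transcription factors of the endothelial lineage, 6 had such a peak in all 6 libraries, among them the ETS factor Erg, and 4 in none, with 6 to 8 genes per wild-type and 9 to 13 per SE/SE library, beside 54.0% of all protein-coding genes in all 6 and 40.0% in none. With full lists the factor counts of the 2 genotypes did not overlap. Nor did the shares of all protein-coding genes, at 54.8 to 56.9% in wild type and 58.1 to 58.9% in SE/SE. With equal list lengths the factors numbered 6 to 8 per wild-type and 5 to 6 per SE/SE library, so the mean difference turned and the groups overlapped. The shares of all protein-coding genes were then 54.8 to 55.1% and 55.3 to 55.7%, still without overlap. Tal1, a factor of blood and vessel precursors, was the only gene of these lists other than Flt1 with the peak in 3 SE/SE and 0 wild-type libraries. Apart from Tal1, genes named from these other lists were chosen after their values were seen. Among 20 further endothelial markers 6 had it in all 6 libraries and 11 in none.

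Markers of cells that travel with vessels gave the following values. Of all protein-coding genes 54.0% had a gene-end peak in all 6 libraries and 40.0% in none. Of 10 pericyte genes 3, Kcnj8, Notch3 and Pdgfrb, had a gene-end peak in all 6 libraries and 4 (Acta2, Cspg4, Rgs5 and Vtn) in none, with 3 to 5 genes per wild-type and 5 to 6 per SE/SE library. Of 13 microglia and blood genes Spi1 alone had one, in all 6 libraries, and the other 12, with Ptprc, Csf1r, Cx3cr1 and Aif1 among them, had none. The part of such cells in the results for the endothelial genes was not tested. Of 12 neural retina genes 11, such as Pax6 and Pou4f2, had a gene-end peak in every library and Six3 in 2 libraries of each genotype. By region, 56.9% of the 123 neural retina regions were in all 6 libraries. The 37 regions of the 10 genes had 21.6% and all regions 52.1%. The share was 47.5% of 101 signalling partner, 47.8% of 90 transcription factor and 46.2% of 39 further endothelial marker regions. The low share was therefore not seen in the other endothelial lists. SE/SE-only regions made up 16.2% for the 10 genes and 8.23% of all regions. They made up 11.9%, 6.67% and 7.69% for those 3 lists, 19.0% for microglia and blood, 5.88% for pericytes and 5.69% for neural retina.

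**Figure D4:**
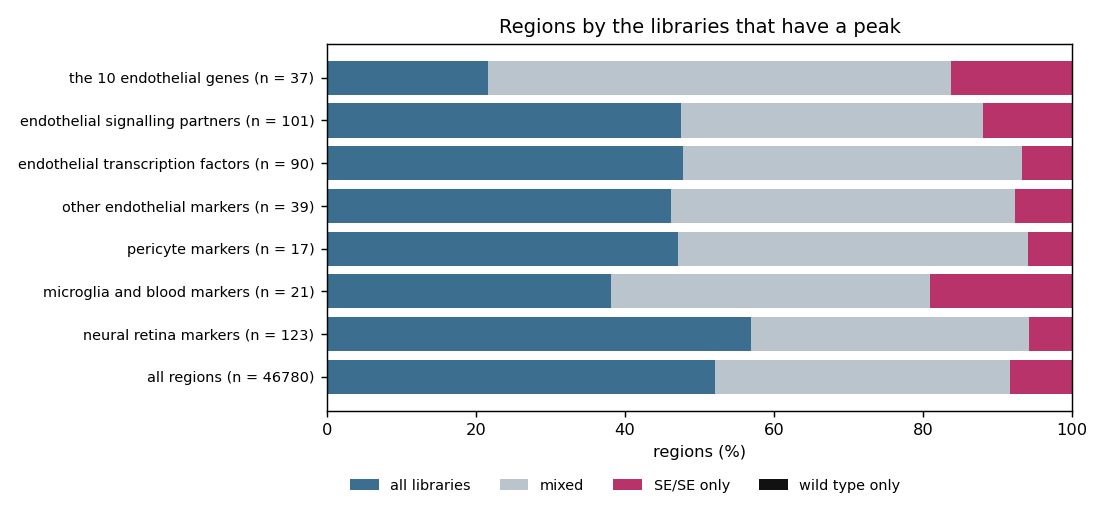
Share of regions (x axis, %) with a peak in all 6 libraries, in a mixed set, in the 3 SE/SE libraries only or in the 3 wild-type libraries only, for the 10 endothelial genes, 6 other gene lists and all regions, with the number of regions in brackets. The shared part is 21.6% for the 10 endothelial genes, 46.2 to 47.8% for the other endothelial lists, 56.9% for neural retina markers and 52.1% for all regions.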

How the data were processed

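ATAC-seq peak lists of 3 Atoh7 +/+ and 3 Atoh7 SE/SE retina libraries and 2 joint lists were used. GRCm38 (mm10), BWA, Genrich 0.5, cutadapt, limma and bedtools 2.27.0 are listed, with no roles, per the submitters' processing notes. Trimming, the Tn5 shift, duplicate handling and how the joint lists were made are not given in the sources used here. The authors' signal value, deposited for every peak beside a −log10 p-value, was used as a percentile within its own list; the −log10 p-value was not used. The lowest deposited signal value rounded to 20, and the deposited score was 1000 times signal over width, capped at 1000, to within 1, for 100% of peaks. No read counts were analysed here, so depth is unknown.

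Positions count from 1. Where a library had 2 peaks in a region, the higher percentile is given. Gene spans and promoter windows are RefSeq's for GRCm38.p6; the span table has no strand or exons, so exons and introns were not told apart. All 106 entries of 7 gene lists, the 10 genes included, were matched by symbol. The genes and lists were chosen with earlier results of these data known. Named in full were regions within 1 kb of a gene end or over a promoter window, regions of a single genotype and each gene's region with the highest mean percentile. Promoters were printed for genes with gene-end peaks in some libraries, then the gene with most; the Egfl7 window falls outside this rule and was chosen after its values were seen. Alternatives were equal list lengths, the highest 80% of each list, gene limits of 50 and 1000 kb, gene-end windows of 500 bp and 2 kb, all annotated genes, other joining rules, and leaving out each library. The 3 libraries of a genotype are separate animals; SDs are over them. Tools were pandas 2.3.3, numpy 2.4.6 and matplotlib 3.10.9 in Python 3.11.15. Joining, patterns and gene assignment were tested on simulated data.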

Additional observations from a re-analysis of the deposited data

How the results depend on the processing

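Of 111 alternative values 81 stayed close to the main value (within 1 SD, or 1.5 times for counts), 29 moved further, 11 of them percentiles of single regions, and 1 changed sign. That was the genotype difference in endothelial transcription factors with a gene-end peak, which was -1.0 gene per library with equal list lengths, a setting chosen for the other gene lists after seeing the data. Some of the 81 values could not change, since gene-end counts do not depend on the gene limit or on noncoding genes competing for peaks. Wild-type-only regions numbered 0 in every alternative run, a pattern that 0.0321% of all regions had in the main run. With equal list lengths there were 0 SE/SE-only and 8 mixed regions, and the SE/SE minus wild-type difference was 1.33 peaks, 0.478 peaks per 10000 and 0.333 genes with a gene-end peak, instead of 18.0, 3.25 and 2.33. With the highest 80% of each list these were 11.0, 2.36 and 0.667. With gene ends up to 1000 kb 13 regions were shared by all libraries. With noncoding genes competing for peaks, 15 regions were mixed and the differences were 12.3 peaks and 2.20 per 10000. With a gene-end window of 500 bp the difference was 1.0 gene. Leaving out 1 library gave 6 to 11 SE/SE-only regions. Requiring a summit inside the region gave the same values by construction. The causes of these shifts were not tested.

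The 22410 regions that lacked a peak in at least 1 library were used, with presence or absence of a peak as the value. Deviations of same-numbered libraries from the mean of their genotype correlated at r = 0.00700, -0.0294 and 0.161. For libraries with unlike numbers r ran from -0.200 to 0.172. Whether the numbers pair the libraries cannot be told from these values. With the replicate block the counts were 6 SE/SE-only and 0 wild-type-only regions, and the mean paired difference was 18.0 ± 6.24 peaks (SD over 3 pairs). The counts and the mean equal the main values by construction.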
